A study of Drosophila melanogaster with 7 samples.

Results

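The Fat/Dachsous pathway core genes are 9 genes of Drosophila melanogaster, taken from the deposited count table by their symbols: the atypical cadherin genes ds and ft, the Golgi kinase gene fj, and d, lft, app, Dlish, Fbxl7 and dco, whose products act on or downstream of Fat. All 9 were found among the 17208 genes of the table, and all 9 were among the 9294 genes with enough counts to be tested. RNA was sequenced from wing imaginal discs, the larval epithelia from which the adult wing grows, of third-instar larvae. There were 3 libraries of the wild type (WT, whose column names carry w1118.csvd111; the labels do not explain csvd111) and 4 of the mutant genotype ds38k. The labels give no transgene, zygosity, sex or hour of dissection, and do not say whether the replicates came from separate dissections. Each p-value therefore measures only the spread between these libraries, which may be technical.

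Fat and Dachsous are giant cadherins that bind each other across the boundary between neighbouring cells. The kinase encoded by fj phosphorylates their cadherin repeats in the Golgi and tunes that binding. Fat restrains the unconventional myosin Dachs, the product of d, which otherwise lowers Warts and so relieves Yorkie, the growth-promoting co-activator of the Hippo pathway. The same cadherins orient cells in the plane of the wing, and fj is known from earlier genetics as a gene whose expression responds to this pathway.

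Library totals ran from 21438650 to 31718949 counts in WT and from 25192573 to 31142008 in ds38k. The groups differed in composition as well as in genotype. Annotated ribosomal RNA genes took 0.8387% to 1.49997% of the WT counts and 11.4% to 15.2% of the ds38k counts. Spearman's rho of log2 fold change with transcript length was -0.60 across 8598 protein-coding genes, a description only, since genes do not count as replicates, and -0.14 with the correction for length. Every core gene is therefore given with and without a correction for transcript length. The 15 wing disc markers summed to 3584 to 4949 CPM (counts scaled to a common library size) in WT and 1109 to 1894 CPM in ds38k, and each was detected. The sum was led by zfh2, at 826 to 1355 CPM in WT and 120 to 179 CPM in ds38k. Not all members followed it: hh was higher in ds38k (59.0 to 82.8 CPM, against 45.1 to 50.6 in WT), and wg, pdm2, eyg and tup overlapped. The other members were lower without overlap. Markers of other tissues also moved: the 6 fat body markers summed to 12.6 to 23.5 CPM in WT and 55.2 to 2928 CPM in ds38k, and the 6 salivary gland markers to 0.104 to 11.001 CPM and 0.366 to 1167 CPM. The 6 muscle markers summed to 11.8 to 26.5 CPM in WT and 39.6 to 442 CPM in ds38k, while the sums for myoblasts (210.4 to 277 and 187 to 221 CPM) overlapped between the groups. Of the myoblast markers, Mef2 was lower in ds38k (65.3 to 66.1 CPM, against 83.9 to 98.1 in WT). Him was higher there (15.2 to 28.3 CPM, against 3.77 to 7.76 in WT), and the other members overlapped. Sums were lower in ds38k for the 4 tracheal markers found of 6 listed, at 2169 to 2842 CPM in WT and 1532 to 1947 CPM in ds38k. Most of that sum was verm (1408 to 1759 CPM in WT, 946 to 1266 CPM in ds38k) and serp. Both were lower, as was trh, and btl overlapped (8.36 to 13.3 CPM in WT, 4.94 to 9.21 CPM in ds38k). The set listed for other discs also had a lower sum, at 309 to 412 and 97.6 to 159 CPM, and was led by Antp (182 to 286 CPM in WT, 82.7 to 107 CPM in ds38k). In that set the genes so and eya were also lower, and Ubx, Scr and ey overlapped. For abd-A there were no counts in WT or ds38k replicate 4, and 1.23 to 3.21 CPM in ds38k replicates 1 to 3. Sums of the haemocyte markers overlapped, at 38.0 to 97.0 and 11.8 to 55.5 CPM. Among them Hml was lower in ds38k (2.05 to 8.06 CPM, against 15.5 to 36.0 in WT), and the other members overlapped. In such bulk tissue, fewer cells of a type and less RNA per cell cannot be told apart. The part of these differences in the results below was not tested.

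In ds38k discs 7 of the 9 core genes were lower (ds, ft, fj, d, app, Fbxl7 and dco) and 2 were higher (lft and Dlish). Among all tested genes 65.0% were called at the same threshold, 30.8% as lower and 34.2% as higher (quasi-likelihood test of edgeR, adjusted p under 0.05 by Benjamini-Hochberg). With the correction for transcript length 3 core genes remained lower (ds, app and dco) and 3 were higher (lft, Dlish and ft), where 46.7% of all tested genes were called, 19.1% as lower and 27.6% as higher. The CPM ranges of WT and ds38k did not overlap for any of the 9, a separation that 66.4% of all tested genes also showed. The median log2 fold change of the core genes was -1.63, against 0.07 over all tested genes, and -0.38 against 0.06 with the correction. The core genes were thus spread over both directions in the corrected comparison, with ds and dco the largest falls among those called.

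**Figure D1:**
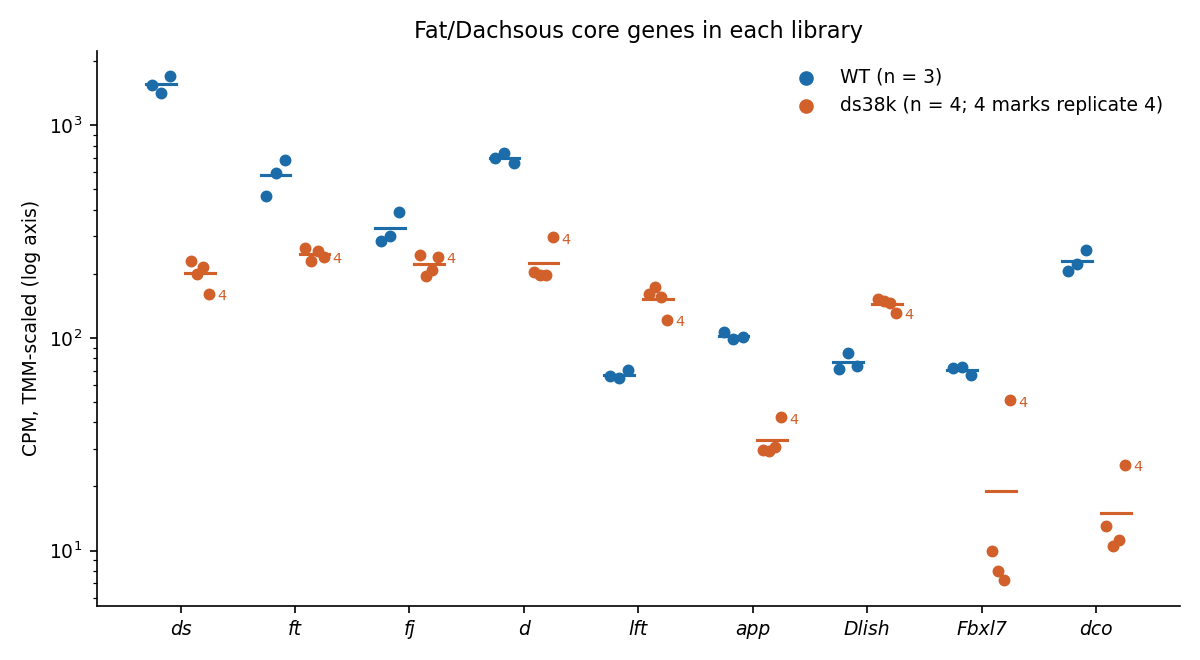
CPM of each core gene on a log axis, with 1 point per library and a bar at the group mean; the 4 beside a point marks ds38k replicate 4. The WT and ds38k points of each gene are separate, and ds38k replicate 4 lies well above the other 3 mutant libraries for Fbxl7 (50.8 CPM) and below them for ds (161 CPM).

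The cadherin gene mutated in these discs, ds (FBgn0284247, dm6 2L:640013-714983, minus strand), was measured first as a check of the labels. WT replicates 1, 2 and 3 held 1547, 1422 and 1701 CPM of it, and ds38k replicates 1, 2, 3 and 4 held 229, 200.3, 215 and 161. The mutant libraries thus kept 10.3% to 14.7% of the WT mean; ds was low in each library labelled as mutant. The whole-gene count cannot tell which exons these remaining reads came from. Its log2 fold change was -2.95 ± 0.14 (SE; adjusted p by edgeR = 4.7e-06), and -1.19 ± 0.08 with the length correction (edgeR adjusted p = 9.3e-05).

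The gene of its partner, ft (FBgn0001075, 2L:4198404-4221796, minus strand), encodes the Fat cadherin that receives the Dachsous signal. It had 463, 595 and 682 CPM in the WT libraries and 265, 228, 255 and 241 CPM in ds38k. WT replicate 1 was the lowest of its group and still lay above every mutant library. The log2 fold change was -1.23 ± 0.13 (SE; adjusted p by edgeR = 1.8e-04). The sign turned with the correction, to 0.54 ± 0.17 (edgeR adjusted p = 0.034), and with lengths taken from the longest transcript the value was 0.29 ± 0.13 and not called (edgeR adjusted p = 0.097).

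Both cadherin genes have very long transcripts, of 12281 bases (median of 2 annotated transcripts) for ds and 16852 for ft. The 200 tested genes nearest to ds in length, from 7478 to 18647 bases, had a median log2 fold change of -1.91 and an interquartile range of -2.42 to -1.32. Of these, 184 lay above ds and 16 below it. For ft the 200 nearest genes ran from 7550 to 36093 bases, since few genes are as long. They had a median of -1.89, and 153 of them lay below ft. Among these genes with long transcripts ds was thus near the lower end and ft in the upper part, although both fell in the uncorrected comparison.

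**Figure D2:**
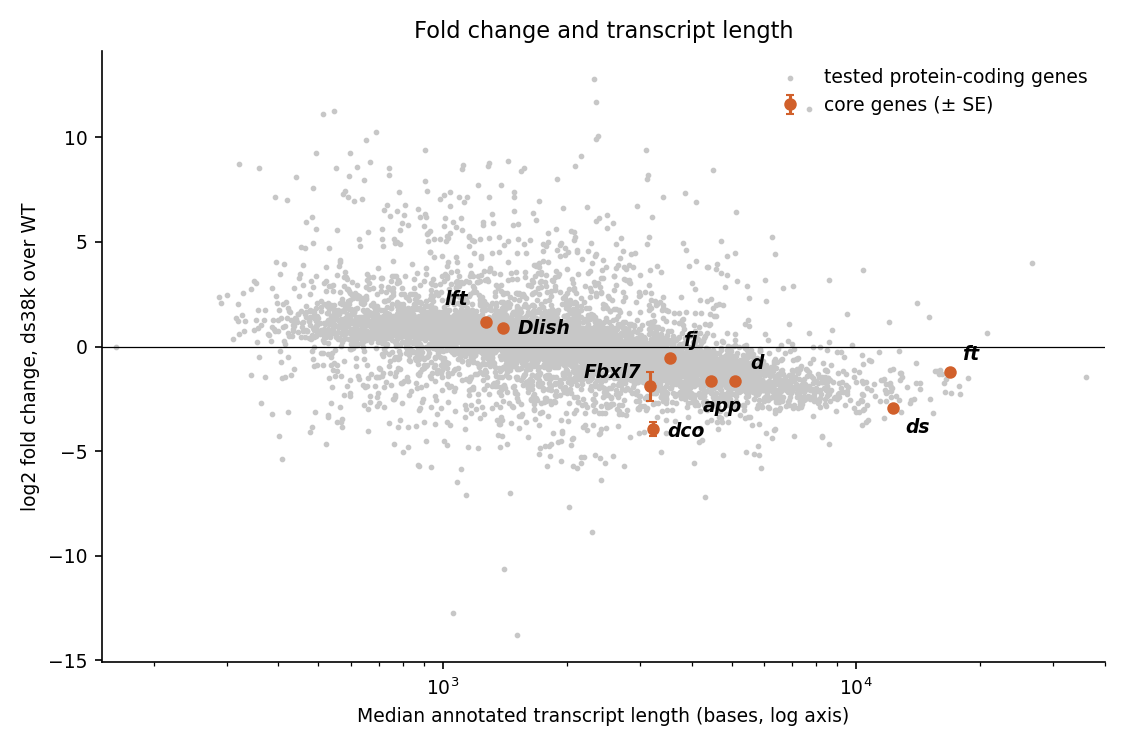
Log2 fold change of ds38k over WT against the median annotated transcript length (log axis) for tested protein-coding genes in grey and for the 9 core genes in orange with their SE. Fold changes decline with length; lft and Dlish lie above 0 at the short end, ds and ft below 0 at the long end, and dco, at -3.93, lies below the 200 genes nearest to it in length.

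A ratio of counts within a library needs no scaling between libraries, but it does not remove the trend with transcript length. In the WT libraries ds had 3.34, 2.39 and 2.49 counts for each count of ft, and in ds38k replicates 1 to 4 it had 0.864, 0.877, 0.841 and 0.668. Every WT library thus had more ds than ft counts and every mutant library fewer. On the log2 scale the ratio was 1.44 ± 0.26 (SD, n = 3) in WT and -0.31 ± 0.18 (SD, n = 4) in ds38k, a difference of -1.75. The exact two-sided permutation test gave p = 0.0286, the smallest value that 35 splits allow, or 0.0457 after Benjamini-Hochberg adjustment over the 8 ratios of a core gene to ft.

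Of the other 7 ratios to ft, 4 separated the groups without overlap, each with an exact permutation p of 0.0286 and an adjusted p of 0.0457. All the ratios share the ft counts, so these tests are not independent of each other. The share of all tested genes whose ratio to ft separated the groups was not computed. By CPM 66.4% of all tested genes separated them, so the count of 4 is not read as a trait of the core genes. The log2 ratio to ft was lower by 2.81 for dco, at -1.33 ± 0.15 (SD, n = 3) in WT and -4.13 ± 0.59 (SD, n = 4) in ds38k. It was higher in ds38k for lft (difference 2.39), Dlish (2.12) and fj (0.67). These genes have much shorter transcripts than ft (1274, 1402 and 3551 bases against 16852), and the ratios carry no length correction. With that correction the log2 fold change was 0.54 for ft, 0.73 for lft, 0.54 for Dlish, 0.23 for fj and -3.33 for dco. The rises of lft, Dlish and fj relative to ft therefore cannot be told apart from the length trend. The ratios of d (difference -0.45, exact permutation p = 0.114), app (-0.44, 0.143) and Fbxl7 (-1.22, 0.171) overlapped between the groups. The ratio of d to ft was 1.51, 1.24 and 0.968 in WT and 0.769, 0.860, 0.775 and 1.23 in ds38k, where replicate 4 lay inside the WT range.

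**Figure D3:**
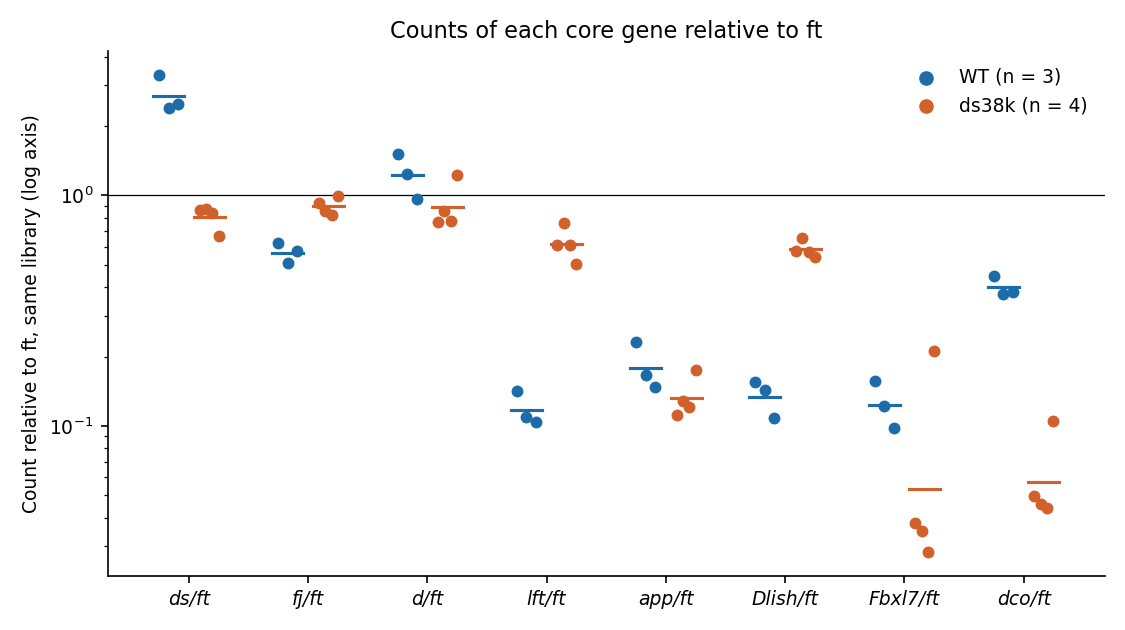
Counts of each core gene relative to ft in the same library, on a log axis, with 1 point per library and a bar at the geometric mean of each group. The ds to ft ratio lies above 1 in the 3 WT libraries and below 1 in the 4 ds38k libraries, and the dco to ft ratio is lower in ds38k, at 0.0442 to 0.105, than in WT, at 0.373 to 0.448.

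The kinase gene fj (FBgn0000658, 2R:18232761-18236311, plus strand) had 286, 302 and 392 CPM in WT and 246, 195, 209 and 239 CPM in ds38k. The groups did not overlap. Its log2 fold change, -0.55 ± 0.14 (SE; adjusted p by edgeR = 0.0095), was the smallest in size among the core genes. With upper-quartile scaling it was -0.30 and not called (edgeR adjusted p = 0.079), and with the length correction it was 0.23 ± 0.11 (edgeR adjusted p = 0.14), with overlapping groups. The fall of fj was thus called with TMM scaling but not with upper-quartile scaling or with the length correction. The 200 genes nearest in length had a median of -0.82, and 136 of them lay below fj.

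Casein kinase 1, the product of dco (discs overgrown; FBgn0002413, 3R:31054085-31061210, minus strand), phosphorylates the intracellular domain of Fat and also acts in circadian, Wnt and Hedgehog signalling. It had 207, 222 and 259 CPM in WT and 13.1, 10.5, 11.3 and 25.3 CPM in ds38k. All mutant libraries were far under the WT range, at 4.56% to 11.03% of the WT mean, and replicate 4 was the highest. The log2 fold change of -3.93 ± 0.33 (SE; adjusted p by edgeR = 5.0e-05), a 15.2-fold fall, was the largest of the core genes. It was -3.33 ± 0.28 with the length correction (edgeR adjusted p = 2.1e-04) and -4.30 without replicate 4.

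None of the 200 tested genes nearest in length (3157 to 3303 bases) had a lower log2 fold change than dco, and their median was -0.42. No annotated gene overlaps dco, and its flanking genes moved the other way. Chchd3, which lies 169 bases away on the same strand and encodes a mitochondrial protein, rose by 1.27 ± 0.12 on the log2 scale (edgeR adjusted p = 7.3e-05), or 0.60 with the correction. Sox100B, a transcription factor gene on the other side, rose by 0.93 ± 0.18 (edgeR adjusted p = 0.0031), or 0.83 with the correction.

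Dachs, the myosin encoded by d (FBgn0262029, listed as dachs in the annotation; 2L:8466817-8488671, plus strand), had 701, 739 and 660.2 CPM in WT. In ds38k it had 203, 196, 198 and 296 CPM, and replicate 4 stood above the other 3. The log2 fold change was -1.65 ± 0.16 (SE; adjusted p by edgeR = 1.0e-04). With the length correction it was -0.38 ± 0.15 and not called (edgeR adjusted p = 0.069), but it was -0.52 and called with lengths taken from the longest transcript (edgeR adjusted p = 0.020). It was also called, at -0.51, with the correction by median length when replicate 4 was left out (edgeR adjusted p = 0.0051). With that correction the groups overlapped, as the log2 CPM of replicate 4 (8.69) lay inside the WT range of 8.55 to 8.86. The median of the 200 genes nearest in length was -1.35, and 66 of them lay below d.

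Approximated, the palmitoyltransferase encoded by app (FBgn0260941, 3L:12206238-12266841, minus strand), places Dachs at the cell membrane and modifies Fat. Its gene had 107, 99.1 and 101 CPM in WT, a narrow range, and 29.6, 29.3, 30.7 and 42.2 CPM in ds38k, where replicate 4 again was highest. Its log2 fold change was -1.63 ± 0.14 (edgeR adjusted p = 5.8e-05), and -0.53 ± 0.12 with the correction (edgeR adjusted p = 0.010). Its 10 annotated transcripts run from 2679 to 6652 bases, so the choice of length mattered: with the longest one the corrected value was -0.26 and not called (edgeR adjusted p = 0.14). The 200 genes nearest in median length had a median of -1.13, and 159 of them lay above app.

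**Figure D4:**
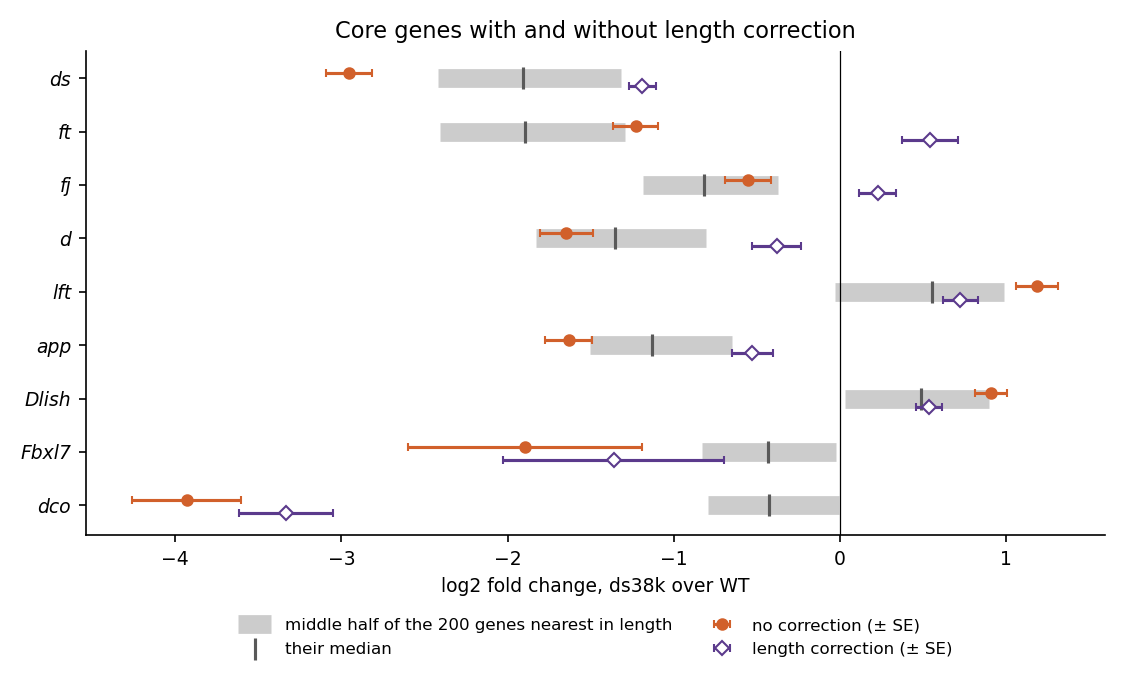
Log2 fold changes of the 9 core genes with SE, without correction (orange circles) and with the length correction (open purple diamonds), above the interquartile range (grey bar) and median (tick) of the 200 tested genes nearest in transcript length. The values of ft and fj cross 0 with the correction, and dco stays near -3.3 while its length class lies around -0.42.

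Dlish and lft were the core genes that rose. Dlish (FBgn0034264, 2R:17723309-17725056, plus strand), an SH3 protein that binds Dachs and carries it to the membrane, had 71.7, 85.1 and 73.6 CPM in WT and 152, 149, 145 and 131 CPM in ds38k. Every mutant library lay above every WT library. The log2 fold change was 0.91 ± 0.10 (SE; adjusted p by edgeR = 1.4e-04), and 0.54 ± 0.08 with the correction (edgeR adjusted p = 0.0018). Snx16, a sorting nexin gene that overlaps Dlish on the other strand, also rose, by 0.81 ± 0.08 (edgeR adjusted p = 1.3e-04), and by 0.58 with the correction. The sources used here do not say whether strand was kept, so reads of these overlapping genes cannot be told apart with certainty.

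The gene lowfat, lft (FBgn0032230, 2L:10364471-10366410, plus strand), encodes a small protein that binds the intracellular domains of Fat and Dachsous and raises their levels. It had 65.8, 64.9 and 70.8 CPM in WT and 161, 173, 156 and 122 CPM in ds38k, with replicate 4 the lowest of the mutants and still above WT. It rose by 1.19 ± 0.13 on the log2 scale (edgeR adjusted p = 1.6e-04), and by 0.73 ± 0.11 with the correction (edgeR adjusted p = 0.0016). Both rising genes have short transcripts, of 1274 bases for lft and 1402 for Dlish. The 200 genes nearest to each had medians of 0.55 and 0.49, and 35 and 50 of them lay above lft and Dlish, respectively.

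Fbxl7 (FBgn0038385, 3R:15920898-15932887, plus strand), an F-box subunit of a ubiquitin ligase that binds Fat and lowers Dachs at the membrane, varied most among the mutant libraries. It had 72.4, 72.8 and 66.9 CPM in WT and 9.99, 7.99, 7.23 and 50.8 CPM in ds38k. Replicates 1 to 3 held 10.2% to 14.1% of the WT mean and replicate 4 held 71.8%. The coefficient of variation was 4.67% in WT and 112% in ds38k. The log2 fold change over all libraries was -1.89 ± 0.70 (SE; adjusted p by edgeR = 0.046), and the call was lost when any library other than ds38k replicate 4 was left out (adjusted p by edgeR of 0.0867 to 0.102). Without replicate 4 it was -3.07 (edgeR adjusted p = 3.9e-06), and -2.46 with the length correction as well (edgeR adjusted p = 2.8e-05). With all libraries and the correction it was -1.36 ± 0.66 (edgeR adjusted p = 0.13). The groups then overlapped, as the corrected log2 CPM of replicate 4 (5.84) lay inside the WT range of 5.70 to 5.89.

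Replicate 4 of ds38k stood apart from the other 3 mutant libraries more often than they did from each other. By Dixon's criterion it was the outlying library in 8.26% of tested genes, against 0.635% to 1.23% for each of the others. It also had the lowest marker sums of its group for fat body (55.2 CPM, against 878 to 2928), salivary gland (0.366 CPM, against 24.4 to 1167), muscle (39.6 CPM, against 152 to 442) and haemocytes (11.8 CPM, against 32.4 to 55.5). It had the highest sums for wing disc markers (1894 CPM, against 1109 to 1300.4), the Antp-led set listed for other discs (159 CPM, against 97.6 to 124) and tracheal markers (1947 CPM, against 1532 to 1601). Not all members followed these sums. In replicate 4 zfh2 (120 CPM, against 150 to 179), Ubx and abd-A were the lowest of the mutant libraries. So were trh (22.2 CPM, against 23.7 to 25.2) and btl (4.94 CPM, against 7.74 to 9.21), while verm and serp, which led the tracheal sum, were highest. The ds level of replicate 4 was the lowest of all libraries, also with the length correction (log2 CPM 8.32). Since long genes in general were lower in ds38k, this is only a weak check of its label. The part of these tissues in the values of Fbxl7, d, app and dco was not tested. Without replicate 4 the counts among the core genes were again 7 lower and 2 higher, where 70.9% of tested genes were called (34.6% lower and 36.3% higher). With the length correction as well they were 5 lower and 3 higher, where 55.3% were called (25.3% lower and 30.0% higher).

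Levels of different genes were compared per kilobase of median annotated transcript. In WT discs the order by mean was d (137 ± 7.73 CPM per kb, SD, n = 3), ds (127 ± 11.4), fj (92.0 ± 16.0), dco (71.0 ± 8.28), Dlish (54.8 ± 5.17), lft (52.7 ± 2.49), ft (34.4 ± 6.57), app (22.9 ± 0.871) and Fbxl7 (22.3 ± 1.04). The ranges of 3 neighbouring pairs overlapped: d and ds, Dlish and lft, and app and Fbxl7. With the longest transcript as length, app came last at 15.4 CPM per kb and Fbxl7 moved up by a place. The ranges of dco (55.2 CPM per kb) and Dlish then overlapped.

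In ds38k the level per length was highest for lft (120.05 ± 17.2 CPM per kb, SD, n = 4) and Dlish (103 ± 6.72), and lowest for app (7.38 ± 1.39), Fbxl7 (5.98 ± 6.68) and dco (4.65 ± 2.15). The cadherin genes were near each other there, with ds at 16.4 ± 2.38 and ft at 14.7 ± 0.943 CPM per kb and overlapping ranges. Between them and the lead lay fj (62.6 ± 6.90) and d (43.8 ± 9.55), whose ranges overlapped, as did those of lft and Dlish, of app and Fbxl7, and of Fbxl7 and dco. The order thus differed from that in WT. The leaders lft and Dlish have the shortest transcripts of the core genes, and fold changes declined with length, so these levels cannot be compared between genes free of that trend. The lowest means by median length were those of Fbxl7 and dco, of 3176 and 3230 bases. Fbxl7 lay above dco only in replicate 4 (16.0 against 7.83 CPM per kb) and below it in the other mutant libraries. With the longest transcript as length, app (4.95 CPM per kb) lay between Fbxl7 (5.98) and dco (3.62). The part of the length trend in the order was not tested. No ranking with the length correction was made.

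The core genes lie on 2L (ds, ft, d and lft), 2R (fj and Dlish), 3L (app) and 3R (Fbxl7 and dco). Of the 18 nearest tested genes on either side of them, 1 was lower and 8 were higher (1 and 6 with the length correction), where 30.8% and 34.2% of all tested genes were called (19.1% and 27.6% with the correction). They had log2 fold changes from -1.90 to 1.62. Beside ds, CG13689 rose by 0.61 ± 0.16 (edgeR adjusted p = 0.010), or 0.043 with the correction and not called, and Nnf1b, a kinetochore protein gene, had a value of -0.21 ± 0.37 (edgeR adjusted p = 0.64), or -0.98 with the correction (edgeR adjusted p = 0.051). Neither flank of ds was thus called lower. Transcripts annotated inside ds, d, app and Fbxl7 were low, at most 8.19 CPM in any library. The lncRNA:CR46028 within Fbxl7, on the opposite strand, had 8.19, 0.828 and 0.727 CPM in WT and no counts in ds38k.

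By the correlation of log2 CPM over the 7 libraries, the genes most like ds were LanB2, a laminin subunit gene, PTP-ER, a tyrosine phosphatase gene, and Ask1, a stress-activated kinase gene, with Pearson r values of 0.9993, 0.9993 and 0.9992. Those most like dco were CG14814 (Gcna in the annotation), ens, a microtubule-associated protein gene, and CG32758 (Snx27 in the annotation), with r values of 0.9996, 0.9994 and 0.9992. These values mostly record the gap between the groups, which all 7 libraries share: 1257 of 9293 genes had an r of at least 0.95 with ds, and 1301 with dco. The likeness is in pattern and not in size, as the log2 fold change was -1.55 for LanB2 and -0.61 for Ask1 without correction, while with it Ask1 had 0.62. For ens it was -2.20, or -1.15 with the correction.

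Of 10 further genes reported to act with Fat, Dachsous or Dachs, 6 were lower, 3 were higher and 1 was not called, where 30.8% of all tested genes were lower and 34.2% higher. With the length correction the counts were 3 lower and 3 higher (19.1% and 27.6% of all tested genes), and the median log2 fold change moved from -0.50 to -0.16. The kinase gene msn, whose product can act on Warts, had 464, 476 and 533 CPM in WT and 38.1, 41.7, 43.6 and 83.7 CPM in ds38k. Its log2 fold change was -3.24 ± 0.29 (edgeR adjusted p = 6.3e-05), and -1.95 ± 0.25 with the correction (edgeR adjusted p = 9.9e-04). Gug, which encodes Atrophin, a corepressor that binds Fat, had -1.91 ± 0.11 (edgeR adjusted p = 1.1e-05) and -0.24 ± 0.09 with the correction by median length, which was not called (edgeR adjusted p = 0.056). With the correction by the longest transcript it was -0.38 and called (edgeR adjusted p = 0.0080). The adaptor gene wap, known from work on Dachsous and Minibrain, had -0.98 ± 0.10 (edgeR adjusted p = 1.4e-04), and -0.47 ± 0.11 with the correction (edgeR adjusted p = 0.010). Rae1, an mRNA export factor gene also tied to Hippo signalling, rose by 1.22 ± 0.10 (edgeR adjusted p = 3.9e-05), and by 0.72 ± 0.11 with the correction (edgeR adjusted p = 0.0019).

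Of 25 genes listed for the Hippo cascade and its upstream regulators, 14 were lower, 3 were higher and 8 were not called, with a median log2 fold change of -0.46. Among all tested genes 30.8% were lower and 34.2% higher, 65.0% in all. With the length correction 5 were lower and 4 higher (19.1% and 27.6% of all tested genes, 46.7% in all), and the median was -0.09. Without correction the 3 higher genes were mats, Mob4 and vito, none of which was called with it; the 4 higher with the correction were Mer, Rassf, Cka and hth. The gene vito encodes a nucleolar protein and was listed in error, and without it the uncorrected counts were 14 and 2. The members with the smallest p were crb, sdt, tsh and Magi. The gene sdt, which encodes the scaffold that binds Crumbs, had a log2 fold change of -2.62 ± 0.13 (adjusted p by edgeR = 5.1e-06), and -1.13 ± 0.12 with the correction (edgeR adjusted p = 4.7e-04). The log2 fold changes of crb, which encodes the apical determinant Crumbs (-1.89), of tsh, which encodes a zinc finger factor of the proximal disc (-1.32), and of the junction scaffold gene Magi (-1.27) moved to -0.27, -0.13 and -0.085 with the correction by median length and were then not called. With the correction by the longest transcript crb (-0.40, edgeR adjusted p = 0.025) and tsh (-0.28, edgeR adjusted p = 0.014) were called and Magi was not.

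**Figure D5:**
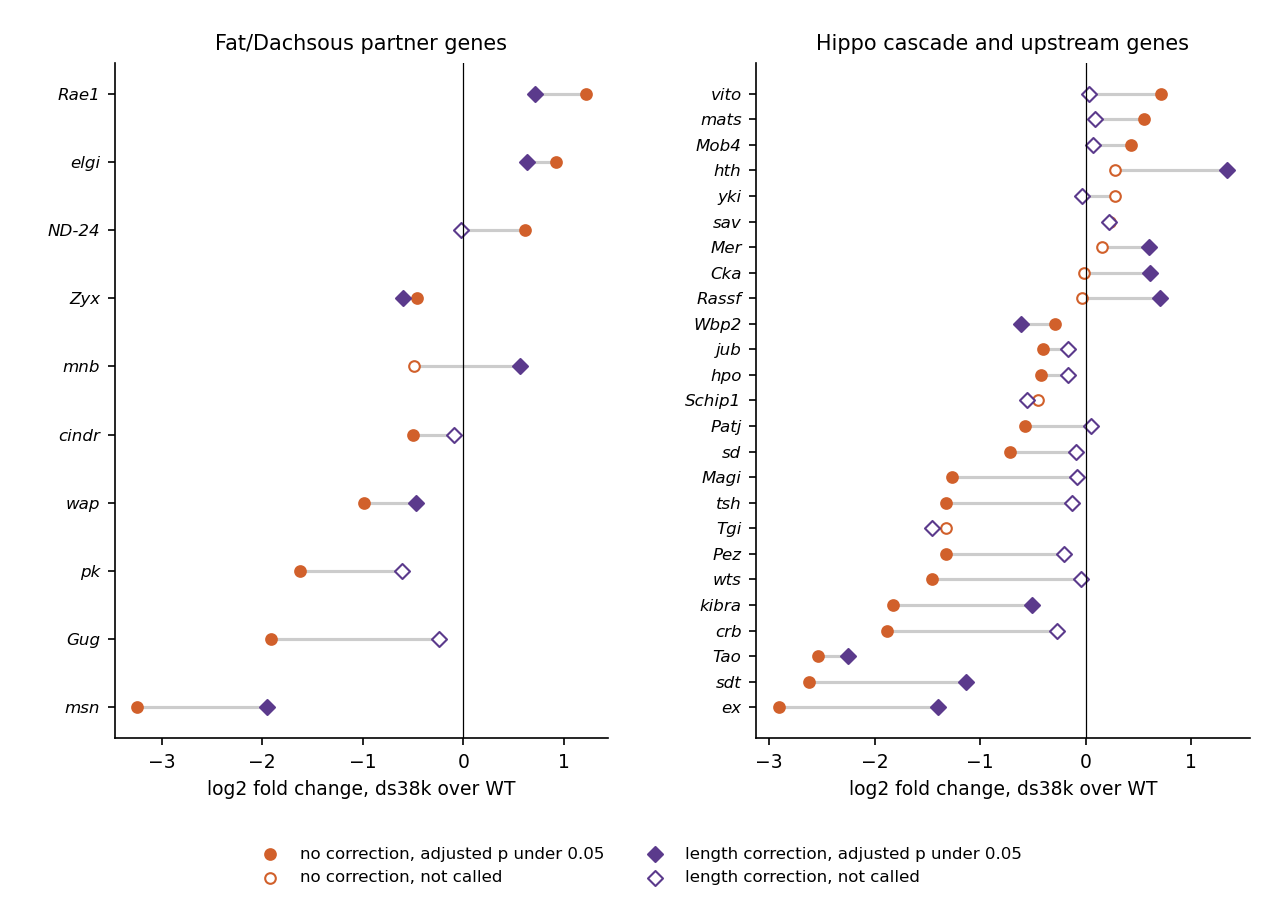
Log2 fold change, ds38k over WT, of the 10 partner genes (left) and the 25 Hippo cascade genes (right), without correction (orange circles) and with the length correction (purple diamonds); filled symbols passed an adjusted p of 0.05. Most falls shrink toward 0 with the correction, whereas msn, ex, sdt and Tao are called and stay below -1.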

How the data were processed

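Per the labels' protocols, RNA of wing discs was sequenced as paired reads. The authors deposited expected counts per gene without scaling. The tools, per the submitters' processing notes, were Trimmomatic 0.33, FastQC 0.10, edgeR and Salmon 1.80 (as written there), with build dm6. Annotation release and strandedness: not given in the sources used here. This counter splits ambiguous reads by a model, so counts of overlapping genes are uncertain. All columns were mapped by the names in the labels, with 0 left over.

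Expected counts were rounded. Genes were kept by edgeR's filterByExpr (minimum count 10), scaled by TMM factors and tested over all 7 libraries with edgeR 4.0.16 (R 4.3.3; quasi-likelihood F-test, genotype without covariates, Benjamini-Hochberg over 9294 genes, threshold 0.05). CPM are TMM-scaled; log2 CPM used a prior count of 2. Each approximate SE is |log2 fold change|/√F. The length correction fitted log2 CPM deviations on log2 median transcript length (annotation BDGP6.54, which has dm6 coordinates; natural spline, 5 degrees of freedom) in each library and entered the trend as an offset for 9224 genes. It also removes any real change that runs with length. Ratios to ft added 0.5 to each count and were tested by two-sided exact permutation of the libraries (35 splits) (scipy 1.17.1). Alternatives used RLE and upper-quartile factors, DESeq2 1.42.0, no filter, other lengths, a replicate block and omission of each library. The fitting procedure was tested on simulated data. Replicates of a group differed by 40.1 to 260 in chi-square per degree of freedom, so each library was counted as 1 sample.

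The members and lists were chosen with earlier results of these data known. The text names the 9 core genes, the 4 genes of smallest p in each of the 2 further lists, neighbours of core genes (those not beside ds or dco or overlapping a core gene as counts only) and the 3 genes most like ds and dco. The genes vito, ex, Tao, mats, Mob4, Mer, Rassf, Cka and hth were named after their values were seen. So were the markers zfh2, hh, wg, pdm2, eyg, tup, Antp, so, eya, Ubx, Scr, ey and abd-A. The same holds for the markers verm, serp, trh, btl, Mef2, Him and Hml. The listed wbp2 and tgi were read as Wbp2 and Tgi. No sequence is shown.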

Additional observations from a re-analysis of the deposited data

Results flagged for a closer look

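Within the 4 ds38k libraries, 1 library lay far from the other 3 by Dixon's criterion for the following values, and in each case it was replicate 4. Chance alone marks about 1 in 20 groups of 4. The CPM of d was 296, that of app 42.2 and that of Fbxl7 50.8, all above the other mutant libraries. The partner gene msn had 83.7 CPM there, against 38.1 to 43.6 in the others. The gene ex, an upstream Hippo regulator, had 301 CPM, against 169 to 187 in the others and 1454 to 1663 in WT.

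The ratio of ds to ft was 0.668 in replicate 4, below the 0.841 to 0.877 of the others. The ratio of Fbxl7 to ft was 0.211, above the 0.0981 to 0.157 of WT, and that of dco to ft was 0.105, still under the WT range. For d, app, Fbxl7, msn, ex and dco the library lay nearer to WT, and for ds it lay farther from WT.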

How the results depend on the processing

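The count of core genes called lower was 7, and 3 with the length correction by the median (ds, app and dco) or by the longest transcript (ds, d and dco); it was 5 with upper-quartile factors, which shift the all-gene median from 0.07 to 0.33, and 6 to 7 with 1 library left out. With the median correction it was 5 with the replicate block added or without ds38k replicate 4. The count called higher was 2 to 3 in every fit run. Partner genes called lower went from 6 to 3 with the length correction by the median and to 4 by the longest transcript. With the median correction they were 5 with the replicate block added or without ds38k replicate 4. They were 4 to 6 with 1 library left out and no correction, with 3 higher throughout those. Hippo cascade genes called lower went from 14 to 5 with the length correction, to 7 with the longest transcript or without ds38k replicate 4 as well, and to 6 with the replicate block added; those called higher went from 3 to 5 with upper-quartile factors and to 6 with the longest transcript. With 1 library left out they were 12 to 16 and 3 to 4. The corrections without replicate 4 and with the block were chosen after seeing the data. Of all tested genes 30.8% were called lower in the main fit and 19.1% with the median correction. Without ds38k replicate 4 these shares were 34.6% and 25.3%. For the other fits the share over all tested genes is not given here. A change of count in those fits therefore cannot be told apart from a change over all genes.

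The log2 fold change of ft reversed to 0.54 with the length correction, 0.29 with the longest transcript, 0.44 with the block added and 0.43 without ds38k replicate 4, and that of fj to 0.23, 0.051, 0.23 and 0.23. Ask1 reversed to 0.62, 0.54, 0.68 and 0.68. CG13689 reversed to -0.066 with the block and -0.068 without replicate 4. Nnf1b reversed to 0.064 with upper-quartile factors and 0.0088 with the replicate block, and ran from -0.43 to 0.18 with 1 library left out. The cause was not tested.

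The difference in the ds to ft log2 ratio, -1.75, was -1.84 to -1.60 with 1 library left out, where the exact permutation test cannot go below 0.0667 or 0.1. As a mean over same-numbered libraries 1 to 3 (replicate block) it was -1.66, where sign changes of 3 pairs cannot go below 0.25. Deviations of same-numbered libraries correlated by 0.14, 0.043 and 0.13, so the numbers were not taken to pair the samples, although each library correlated best with its own number. The block leaves ds38k replicate 4 without a partner; with it the core counts were again 7 lower and 2 higher.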
